A study of Mus musculus with 4 samples.

Results

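Triglyceride is held in the lipid droplets of fat cells and muscle fibres and travels in the blood in lipoproteins, and in both places lipases must cut it before its fatty acids can be used. Inside the cell the lipases act in sequence: Pnpla2 (ATGL), which needs its activator Abhd5 (CGI-58), removes the first fatty acid, Lipe (hormone-sensitive lipase) the next and Mgll (monoacylglycerol lipase) the last, and the glycerol that is left leaves fat cells through the channel Aqp7. In the capillary, Lpl (lipoprotein lipase), made by muscle fibres and fat cells, is carried across the endothelium and held there by Gpihbp1.

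The genes described here are those 4 intracellular proteins and the channel, Lpl and Gpihbp1, Pnpla3 (adiponutrin, a close relative of Pnpla2) and the carboxylesterases Ces1d and Ces1f, which hydrolyse esters including triglyceride. They make 10 of the 55573 gene IDs in each count file and were found by matching gene symbols to Ensembl IDs in GENCODE M21. They were chosen by a list of symbols drawn up with earlier results of these counts in view, so their differences between the groups are given as a description and not as a test. All 10 passed the filter on low counts, which left 13076 genes.

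RNA of the quadriceps, the large thigh muscle, was sequenced in 2 libraries from vdr-/- mice (B6.129S4-Vdrtm1Mbd/J), in which the vitamin D receptor is inactivated in every cell, and 2 libraries from WT mice (C57BL/6J). All mice were 7 weeks old and, after weaning at 21 days, ate regular chow and drank water at will. The labels number the libraries 1 and 2 in each group but do not say that they came from separate animals, and they give no sex, so the spread between libraries may be technical. Going by its title, the series asks how the receptor affects which fuel muscle uses.

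The vdr-/- libraries held 21.34 M and 11.21 M counts and the WT libraries 10.79 M and 13.03 M. Vdr itself had 5 and 1 counts in vdr-/- muscle and 5 and 0 in WT muscle, which at this depth checks no label, and the deletion in this strain leaves most of the gene in place. The groups were of opposite sex: Xist, the RNA that silences an X chromosome in female cells, stood at 0 and 0.255 CPM in vdr-/- libraries and 182 and 216 CPM in WT libraries, and the Y-linked Ddx3y at 75.6 and 62.9 CPM in vdr-/- libraries and 4.73 and 0 CPM in WT libraries. WT replicate 1 thus held some Y-linked reads that WT replicate 2 lacked. Genotype and sex cannot be told apart in any difference below. Since the tissue was sequenced in bulk, fewer cells of a type and less RNA per cell cannot be told apart either.

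The catalytic site shows how these proteins relate. In the lipases and esterases a serine attacks the ester bond of the fat, inside the pattern glycine, any residue, serine, any residue, glycine. Below are 33 coding bases around that serine in each gene that has it and around the matching residue of Abhd5, on the coding strand of GRCm38 from GENCODE M21 transcripts, with the codon of the serine in capitals (of asparagine in Abhd5).
Pnpla2, chr7:141455410-141455442, + strand: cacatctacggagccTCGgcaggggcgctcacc
Pnpla3, chr15:84167997-84168029, + strand: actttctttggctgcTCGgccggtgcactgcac
Abhd5, chr9:122368197-122368229, + strand: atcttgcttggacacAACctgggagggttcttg
Lipe, chr7:25383628-25383660, - strand: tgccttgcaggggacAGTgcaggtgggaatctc
Mgll, chr6:88808127-88809347, + strand, with an intron inside this span: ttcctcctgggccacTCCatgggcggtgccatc
Ces1d, chr8:93187755-93187787, - strand: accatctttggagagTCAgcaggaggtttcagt
Ces1f, chr8:93269986-93270018, - strand: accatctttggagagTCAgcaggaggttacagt
Lpl, chr8:68894657-68894689, + strand: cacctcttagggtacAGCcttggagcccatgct

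The serine is residue 47 of the encoded protein in both Pnpla2 and Pnpla3, residue 221 in both Ces1d and Ces1f, residue 122 in Mgll, 159 in Lpl and 466 in Lipe. Abhd5 has asparagine at residue 155 in its place and is an activator with no triglyceride lipase activity of its own. Gpihbp1 and Aqp7 are not hydrolases. Across their aligned coding sequences Ces1d and Ces1f were identical at 77.9% of bases and 70.4% of residues, and Pnpla2 and Pnpla3 at 60.2% of bases and 49.5% of residues. Relatives this close can share reads. Of the 50-base windows of one transcript per gene, 1.28% of those of Ces1d and 1.6% of those of Ces1f also occurred in another gene's transcript, against 0% for Pnpla2, Abhd5, Lipe, Mgll and Gpihbp1. The share was 4.51% for Pnpla3, all with the overlapping gene model Gm49513, which had 0 counts in all 4 libraries, 3.98% for Lpl and 3.55% for Aqp7. With windows of 100 bases it was 0% for every member other than Pnpla3, at 0.577%. Exons of Abhd5, Lipe and Mgll overlap a gene on the opposite strand, and none of those 3 genes had more than 10 counts in a library. The counts used were made without regard to strand, and a read over exons of both genes may be counted for neither. The low counts of these genes and of Gm49513 therefore do not show how many reads fell in the overlaps.

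All 10 genes were higher in both vdr-/- libraries than in both WT libraries. Over all tested genes, 23% had both vdr-/- libraries above both WT libraries, and nothing is read from the members' count because it was known when they were chosen. The summed level of the 10 genes was 1339 and 1206 TMM-normalised CPM (counts scaled to a common library size) in vdr-/- muscle and 522 and 574 CPM in WT muscle. A gene is called here where its Benjamini-Hochberg adjusted p over all 13076 genes is below 0.05 in the quasi-likelihood test of edgeR. By that rule 6 of the 10 were called higher and 0 lower, where 2.03% of all genes were called and 1.61% were called higher. The 6 were Pnpla2, Pnpla3, Lipe, Ces1d, Ces1f and Lpl, and the other 4, Abhd5, Mgll, Gpihbp1 and Aqp7, did not pass. Nearest to the threshold were Pnpla3 just inside it, with a log2 fold change of 1.35 ± 0.28 (SE), and Abhd5 just outside it, at 0.58 ± 0.13. The median log2 fold change of vdr-/- over WT was 1.23 over the 10 genes and -0.00 over all genes tested.

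**Figure D1:**
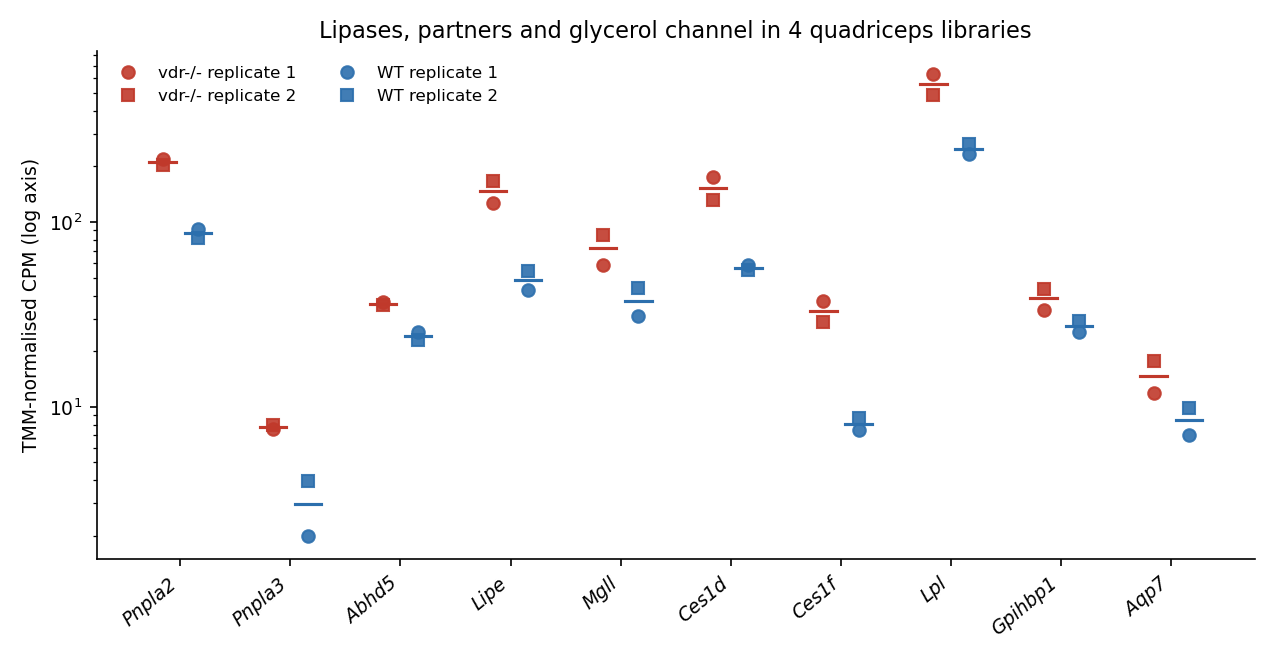
TMM-normalised CPM (log axis) of the 10 genes in each library, vdr-/- in red left of WT in blue, with circles for replicate 1, squares for replicate 2 and bars for the mean of each group. For every gene both red points lie above both blue points, with the narrowest gap for Gpihbp1 (33.5 and 43.6 CPM in vdr-/-, 25.4 and 29.1 CPM in WT).

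The first step of triglyceride breakdown was represented by Pnpla2 (chromosome 7, 141455198 to 141460743). It stood at 220.0 and 204 CPM in vdr-/- muscle and at 91.5 and 82 CPM in WT muscle. The libraries of a group were close together (means 212 ± 11.2 and 86.7 ± 6.69 CPM, SD, n = 2 each, vdr-/- first), and the lowest vdr-/- library was 2.23 times the highest WT library. Its log2 fold change was 1.29 ± 0.13 (SE), a 2.45-fold higher level, and it lay between 1.21 and 1.37 with any 1 library left out.

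Pnpla3 (chromosome 15, 84167837 to 84187236), whose protein sits on lipid droplets and binds Abhd5, was the least abundant member by CPM. It had 159 and 94 counts in vdr-/- muscle, or 7.54 and 8 CPM, and 21 and 51 counts in WT muscle, or 1.99 and 3.97 CPM. The vdr-/- libraries agreed closely, while WT replicate 1 was at 0.5 times WT replicate 2, the widest gap within a group of any member. The fold change of Pnpla3 leaned on single libraries. It was 1.96 without WT replicate 2, where it was called, and it lost its call without WT replicate 1 (0.97), without vdr-/- replicate 1 (1.39) and without vdr-/- replicate 2 (1.31).

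Abhd5 (chromosome 9, 122351608 to 122381524), the activator that Pnpla2 needs, was at 36.8 and 35.6 CPM in vdr-/- muscle and at 25.5 and 22.9 CPM in WT muscle. The groups did not overlap, but the log2 fold change of 0.58 ± 0.13 (SE) was not called. The ratio of their RNA did not overlap between the groups either: Pnpla2 over Abhd5, as a ratio of CPM within a library, was 5.98 and 5.74 in vdr-/- muscle and 3.58 in both WT libraries. The ratio of a gene pair depends on transcript length as well as on level, so only its difference between libraries is informative.

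Lipe (chromosome 7, 25379527 to 25398710), the hormone-sensitive lipase that prefers diacylglycerol and also cuts cholesteryl esters, stood at 126 and 167 CPM in vdr-/- muscle and at 42.8 and 54.2 CPM in WT muscle. Replicate 2 was the higher library in both groups, and the lowest vdr-/- library was 2.32 times the highest WT library. The log2 fold change was 1.59 ± 0.17 (SE).

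Mgll (chromosome 6, 88724412 to 88828360), which splits the last fatty acid from glycerol and also degrades the endocannabinoid 2-arachidonoylglycerol, was at 58.4 and 85.5 CPM in vdr-/- muscle and at 30.8 and 43.9 CPM in WT muscle. Libraries of the same group differed by more than the nearest libraries of different groups: replicate 1 was at 0.683 times replicate 2 in vdr-/- muscle and at 0.702 times in WT muscle, and the lowest vdr-/- library was 1.33 times the highest WT library. Its log2 fold change of 0.94 ± 0.23 (SE) was not called by the rule given above. It was called without WT replicate 2 (1.22) and without vdr-/- replicate 1 (1.19). Lipe over Mgll was 2.15 and 1.95 in vdr-/- muscle and 1.39 and 1.23 in WT muscle, without overlap.

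Aqp7 (chromosome 4, 41033074 to 41048139), the glycerol channel, stood at 11.9 and 17.6 CPM in vdr-/- muscle and at 7 and 9.89 CPM in WT muscle. Its log2 fold change of 0.78 ± 0.23 (SE) was not called. Its replicates were spaced like those of Mgll, with replicate 1 at 0.673 times replicate 2 in vdr-/- muscle and 0.708 times in WT muscle.

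The carboxylesterases had some of the larger differences. Ces1f (chromosome 8, 93256236 to 93279747) was at 37.3 and 28.8 CPM in vdr-/- muscle and at 7.47 and 8.65 CPM in WT muscle. Its log2 fold change of 2.04 ± 0.17 (SE), or 4.1-fold, was the highest of the 10 genes, and the lowest vdr-/- library was 3.33 times the highest WT library. Ces1d (chromosome 8, 93166068 to 93197838), known as triacylglycerol hydrolase or carboxylesterase 3 of fat and liver, was at 175 and 131 CPM in vdr-/- muscle and at 58.2 and 55.1 CPM in WT muscle, a log2 fold change of 1.44 ± 0.15 (SE). Ces1d over Ces1f was 4.69 and 4.56 in vdr-/- muscle and 7.78 and 6.37 in WT muscle, lower in both vdr-/- libraries.

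Both lie on the minus strand in a row of 8 Ces1 genes on chromosome 8, and they were the only ones of the row that passed the filter. Ces1e, which lies between them, had 9 and 1 counts in vdr-/- muscle and 5 and 3 counts in WT muscle. Ces1a, Ces1c and Ces1g had 0 counts in every library, and Ces1b and Ces1h had 1 count in all. Ces1d and Ces1f are also abundant in liver. Of 7 liver markers, Alb was the only one tested, at 0.949 and 1.53 CPM in vdr-/- muscle and 1.89 and 0.857 CPM in WT muscle, and the 7 together reached 1.47 and 1.96 CPM in vdr-/- muscle and 2.93 and 0.935 CPM in WT muscle, near 0 in both groups.

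Lpl (chromosome 8, 68880491 to 68907448) had more counts than any other member, with 633 and 484 CPM in vdr-/- muscle and 232 and 264 CPM in WT muscle. The log2 fold change was 1.17 ± 0.16 (SE), with both vdr-/- libraries at least 1.84 times either WT library. Gpihbp1 (chromosome 15, 75596628 to 75599481), its endothelial anchor, had the smallest difference, with 33.5 and 43.6 CPM in vdr-/- muscle, 25.4 and 29.1 CPM in WT muscle and a log2 fold change of 0.49 ± 0.16 (SE) that was not called. Lpl over Gpihbp1 was 18.9 and 11.1 in vdr-/- muscle and 9.1 and 9.09 in WT muscle. The 2 WT libraries thus had nearly the same ratio of Lpl RNA to Gpihbp1 RNA, and the 2 vdr-/- libraries had higher and unequal ones. The amounts of the proteins were not measured. Of 7 ratios between members that were computed, 4 separated the groups and are given here and above. Separation is common with so few libraries: of 13076 single genes, 3012 had both vdr-/- libraries above both WT libraries and 2833 had both below. The share over all gene pairs was not computed, and nothing is read from the count of 4. The other 3 overlapped: Pnpla2 over Lipe was 1.75 and 1.22 in vdr-/- muscle and 2.14 and 1.51 in WT muscle, Pnpla2 over Pnpla3 was 29.2 and 25.5 in vdr-/- muscle and 46 and 20.6 in WT muscle, and Lpl over Pnpla2 was 2.88 and 2.37 in vdr-/- muscle and 2.53 and 3.22 in WT muscle.

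Gpihbp1 is made by capillary endothelial cells, and 0 of the 12 endothelial markers, among them Pecam1 (log2 fold change -0.04), Cdh5 (-0.41) and Kdr (0.28), were called. That is near the share of 2.03% called over all tested genes. Their summed level was 273 and 266 CPM in vdr-/- muscle and 287 and 308 CPM in WT muscle, with 2 of 12 log2 fold changes above 0 and a median of -0.16. Gpihbp1 amounted to 12.3% and 16.4% of that sum in vdr-/- muscle and 8.85% and 9.44% in WT muscle.

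**Figure D2:**
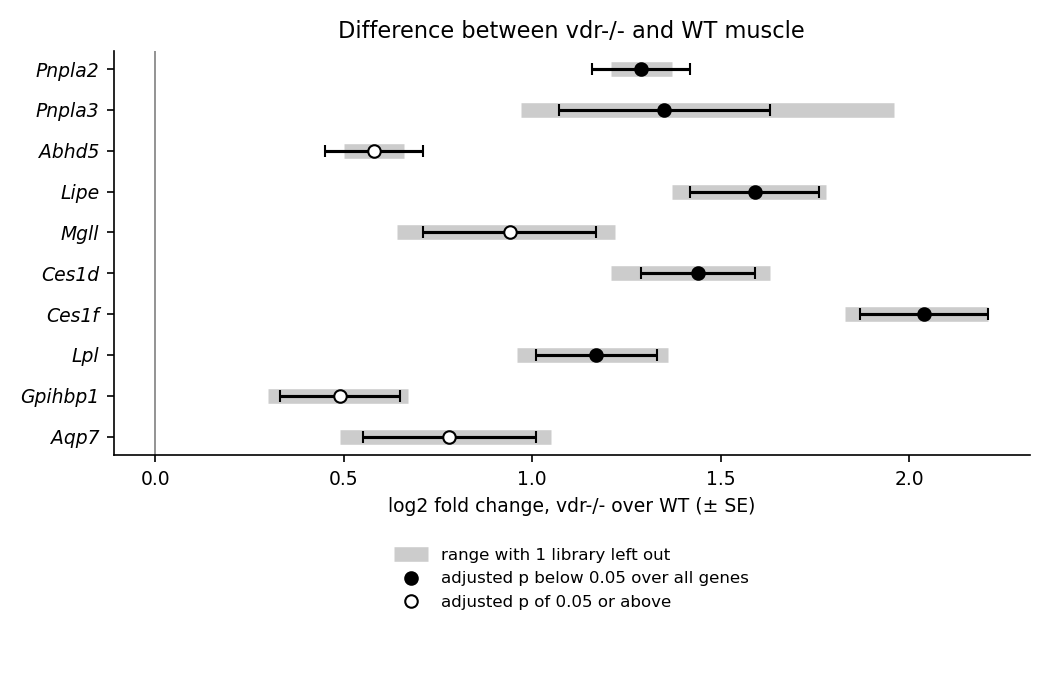
Log2 fold change of vdr-/- over WT for each gene with its SE, over a grey band from the lowest to the highest value when 1 of the 4 libraries was left out. Filled points mark the 6 genes called and open points the 4 that were not. Ces1f stands highest at 2.04 and Gpihbp1 lowest at 0.49, and Pnpla3 has the widest band, from 0.97 to 1.96.

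Levels can be compared between genes only per length of transcript. In CPM per kilobase (RPKM) over all annotated exons of a gene, Pnpla2 led at 70.2 ± 3.69 in vdr-/- muscle and 28.7 ± 2.21 in WT muscle (SD, n = 2 each). It was followed by Ces1d at 64.6 ± 13.1 in vdr-/- muscle and 23.9 ± 0.928 in WT muscle, and by Lpl at 53.3 ± 10 in vdr-/- muscle and 23.6 ± 2.19 in WT muscle. In vdr-/- muscle the ranges of Ces1d overlapped with those of Pnpla2 and of Lpl, and in WT muscle those of Ces1d and Lpl overlapped. Within a library, Ces1d was above Lpl in both vdr-/- libraries (73.8 against 60.4 and 55.4 against 46.2), while their order differed between the WT libraries. The order of Ces1d and Pnpla2 differed between the vdr-/- libraries.

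With the length of one reference transcript in place of all exons, the order at the top changed. Lpl then led at 136 ± 25.6 RPKM in vdr-/- muscle and 60.2 ± 5.57 RPKM in WT muscle, ahead of Pnpla2 at 118 ± 6.2 in vdr-/- muscle and 48.2 ± 3.72 in WT muscle and Ces1d at 76.4 ± 15.4 in vdr-/- muscle and 28.3 ± 1.1 in WT muscle. The ranges of Lpl and Pnpla2 overlapped in vdr-/- muscle and did not in WT muscle. Within each vdr-/- library Lpl was above Pnpla2 (154 against 122 and 118 against 114). Gpihbp1, whose reference transcript is short, took rank 4 in vdr-/- muscle at 46.7 ± 8.63 RPKM and rank 3 in WT muscle at 33 ± 3.09 RPKM. At the low end Pnpla3 was last in WT muscle either way, at 1.92 ± 0.907 RPKM over all exons, and Pnpla3 and Aqp7 filled the last places in vdr-/- muscle, at 5.02 ± 0.208 and 5.21 ± 1.44 RPKM over all exons, which overlapped. Ces1f took rank 7 in vdr-/- muscle and rank 9 in WT muscle over all exons.

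Genes that work beside the intracellular lipases were taken from a list of 17 droplet coat proteins, lipase inhibitors and glycerol handling genes, of which 14 were tested. Of these 14, 6 were called higher and 0 lower, where 1.61% of all tested genes were called higher. The median log2 fold change of the 14 was 0.74. Plin1, Cidec and Fabp4 of this list are also among the fat-cell markers below, so the 2 lists are not separate. Plin1, the perilipin that holds Abhd5 away from Pnpla2 until a hormone signal arrives, was at 95.5 and 144 CPM in vdr-/- muscle and 35.7 and 44.9 CPM in WT muscle. Plin5, the perilipin of oxidative tissues, was at 11.8 and 10.3 CPM in vdr-/- muscle and 4.64 and 4.83 CPM in WT muscle. The inhibitor of Pnpla2, G0s2, was at 51.1 and 39.7 CPM in vdr-/- muscle and 19.2 and 24.8 CPM in WT muscle. Not every member of these classes was called: of genes outside the naming rule, the coat proteins Plin2 (log2 fold change 0.55 ± 0.15, SE) and Plin3 (0.40 ± 0.14) were not, and Hilpda, another inhibitor of Pnpla2, overlapped between the groups at -0.19 ± 0.37. Plin2 was called without WT replicate 2 (0.76). The other 3 called genes were Cidec (log2 fold change 1.93 ± 0.14, SE), a droplet fusion protein of fat cells, Fabp4 (1.48 ± 0.15), which carries fatty acids and binds Lipe, and Plin4 (0.93 ± 0.13), another droplet coat protein.

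Of 20 genes that mature, inhibit or activate Lpl or take up its products, 17 were tested, with a median log2 fold change of 0.23. Of the 17, 3 were called higher and 0 lower, where 1.61% of all tested genes were called higher. Cd36, the fatty acid transporter, was at 331 and 338 CPM in vdr-/- muscle and at 171 CPM in both WT libraries. Apoc1, an apolipoprotein that inhibits Lpl, was at 29.5 and 24.3 CPM in vdr-/- muscle and 4.35 and 7.79 CPM in WT muscle, a log2 fold change of 2.14 ± 0.24 (SE). Apoc3, another apolipoprotein inhibitor of Lpl, had 27 and 14 counts in vdr-/- muscle and 1 and 2 counts in WT muscle. The ratio of its summed counts per library size was 10 (95% interval 3.19 to 50.5, counting error only). Its call was lost when any 1 of the 4 libraries was left out, and also with another program, DESeq2, on all 4. Angptl4, which inactivates Lpl and was singled out after its values were seen, was at 34.9 and 18.5 CPM in vdr-/- muscle and 6.24 and 9.27 CPM in WT muscle. Its log2 fold change of 1.79 ± 0.38 (SE) was not called by the rule given above. With all 4 libraries it was called by DESeq2 and by edgeR without robust estimation. It was also called without vdr-/- replicate 1 (1.24) and without vdr-/- replicate 2 (2.16).

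The list of other lipases and esterases held few genes that muscle expresses. Of its 32 genes, 12 were tested and 9 had no count in any library. In either direction 0 of the 12 were called, with a median log2 fold change of 0.10. Since 2.03% of all tested genes were called, 0 of 12 is near the share over all genes. Their summed level was 227 and 226 CPM in vdr-/- muscle and 219 and 203 CPM in WT muscle. Ddhd2, a triglyceride hydrolase best known from neurons, had the smallest p of the 12, with 18.3 and 18.6 CPM in vdr-/- muscle, 9.84 and 14.3 CPM in WT muscle and a log2 fold change of 0.60 ± 0.18 (SE). It was called without WT replicate 2 (0.90). Next was Abhd12, a lipase for lysophospholipids and monoacylglycerol, at 0.39 ± 0.17.

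**Figure D3:**
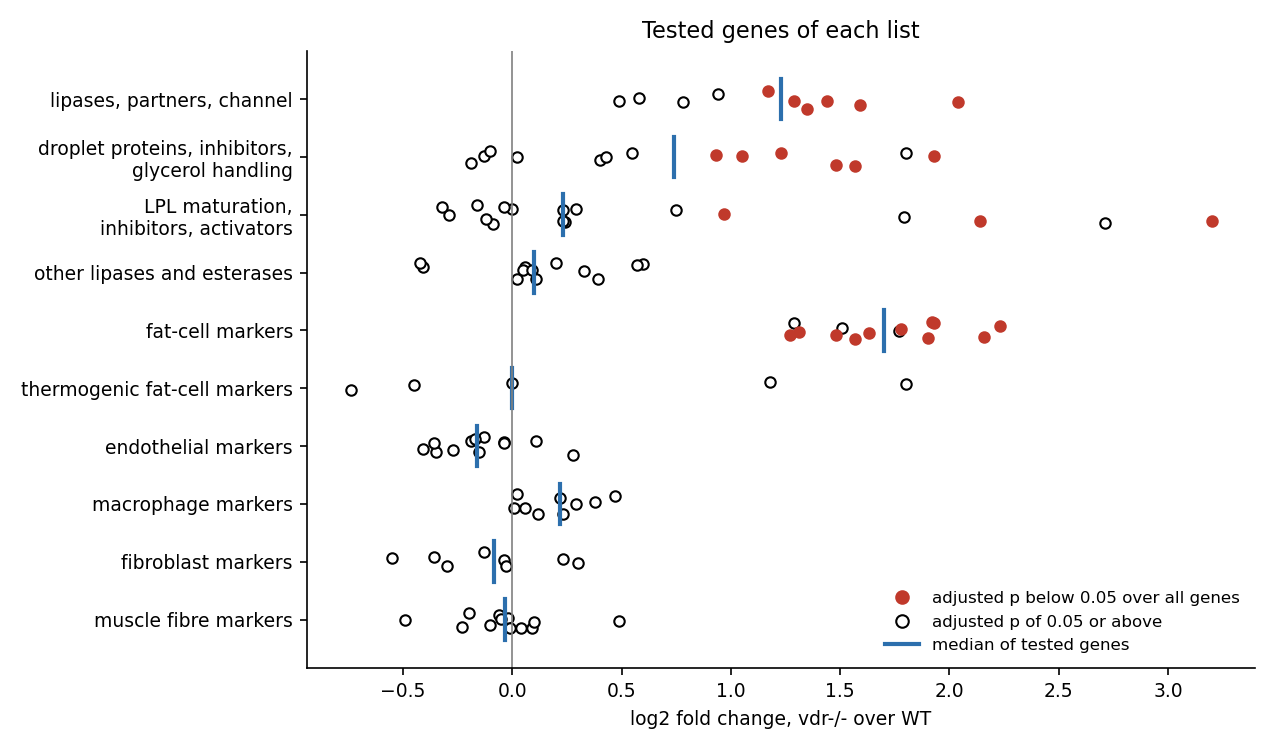
Log2 fold change of vdr-/- over WT for each tested gene of each list, one row per list, with called genes filled in red, the rest open, and a blue bar at the median of the tested genes. The 10 lipases, partners and channel have a median of 1.23 and the fat-cell markers one of 1.70, while the medians of the other lipases (0.10) and of the endothelial (-0.16), fibroblast (-0.08) and muscle fibre markers (-0.04) lie near 0.

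Fat-cell markers moved with the lipases. All 14 were higher in both vdr-/- libraries than in both WT libraries, where 23% of all tested genes were. Of the 14, 11 were called higher, where 1.61% of all tested genes were, and their median log2 fold change was 1.70. Their sum was 4676 and 4181 CPM in vdr-/- muscle and 1118 and 1357 CPM in WT muscle. The defining markers were far from 0 in both groups, with the hormone Adipoq at 300.3 and 299 CPM in vdr-/- muscle and 70.1 and 88.2 CPM in WT muscle, and the secreted protease Cfd (adipsin) at 2138 and 1604 CPM in vdr-/- muscle and 379 and 419.6 CPM in WT muscle. Pck1, which makes the glycerol backbone for fat in these cells, was at 272 and 329 CPM in vdr-/- muscle and 82.5 and 91.9 CPM in WT muscle, and Plin1 and Cidec are described above. The part of the fat-cell markers in the differences of the lipases was not tested. Of 6 markers of thermogenic fat cells 5 were tested and 0 called, where 2.03% of all tested genes were called. The summed level of the list was 349.6 and 421 CPM in vdr-/- muscle and 366 and 364 CPM in WT muscle. Most of that sum was Cox8b, named after its values were seen, at 298 and 369 CPM in vdr-/- muscle and 357 and 307 CPM in WT muscle. The sum therefore says little about the other markers of the list. Ucp1 was at 12.1 and 14.6 CPM in vdr-/- muscle and at 1.51 and 34 CPM in WT muscle, and it was called lower without WT replicate 1 (log2 fold change -1.36) and higher without WT replicate 2 (3.12). Cidea was at 34.9 and 32.1 CPM in vdr-/- muscle and 3.31 and 15.6 CPM in WT muscle, and was called higher without WT replicate 1 (1.11) and without WT replicate 2 (3.33). Otop1, named after its values were seen, also had both vdr-/- libraries above both WT libraries, at 2.04 and 3.4 CPM in vdr-/- muscle and 0.757 and 1.48 CPM in WT muscle. Dio2, named likewise, went the other way, at 2.66 and 1.96 CPM in vdr-/- muscle and 2.74 and 5.06 CPM in WT muscle. Elovl3 had at most 12 counts in a library. For Ucp1 and Cidea the WT libraries lay far apart, and the part of these cells in the differences of the lipases was not tested.

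The level of each gene was also set against the fat-cell markers of its own library. Lpl amounted to 13.5% and 11.6% of the summed marker CPM in vdr-/- muscle and 20.7% and 19.5% in WT muscle. Pnpla2 amounted to 4.71% and 4.88% in vdr-/- muscle and 8.18% and 6.05% in WT muscle, and Gpihbp1 to 0.716% and 1.04% in vdr-/- muscle and 2.28% and 2.14% in WT muscle. On this scale both vdr-/- libraries lay below both WT libraries for these 3 genes and for Abhd5, Mgll, Ces1d and Aqp7, the reverse of the order in CPM. The marker sum was itself higher in vdr-/- muscle, so any gene that was raised less than the sum, or not at all, lies lower on this scale. Gpihbp1 is made by endothelial cells and Lpl also by muscle fibres, so their shares do not give a level per fat cell. Lipe did not separate the groups, at 2.68% and 3.99% in vdr-/- muscle and 3.82% and 4% in WT muscle, and neither did Pnpla3. Ces1f was the exception, at 0.798% and 0.688% in vdr-/- muscle and 0.669% and 0.637% in WT muscle.

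These proportions depend on the markers used. Cfd, the marker with the highest log2 fold change (2.23), made up 45.7% and 38.4% of the sum in vdr-/- muscle and 33.9% and 30.9% in WT muscle. With Cfd left out, a choice made after seeing the data, Ces1d overlapped between the groups as well (6.89% and 5.09% in vdr-/- muscle, 7.88% and 5.88% in WT muscle), and the other 9 genes kept their placing. Set against each of the 14 markers alone, Abhd5 and Gpihbp1 were lower in both vdr-/- libraries with all 14, Aqp7 with 13 and Mgll with 12. The placing was less even for Lpl, lower with 9, for Pnpla2, lower with 7, and for Ces1d, lower with 5, which overlapped with the rest. Lipe was lower with 4, higher with 1 and overlapped with 9, and Pnpla3 was lower with 3 and overlapped with 11. Ces1f was higher with 7, lower with 1 and overlapped with 6.

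**Figure D4:**
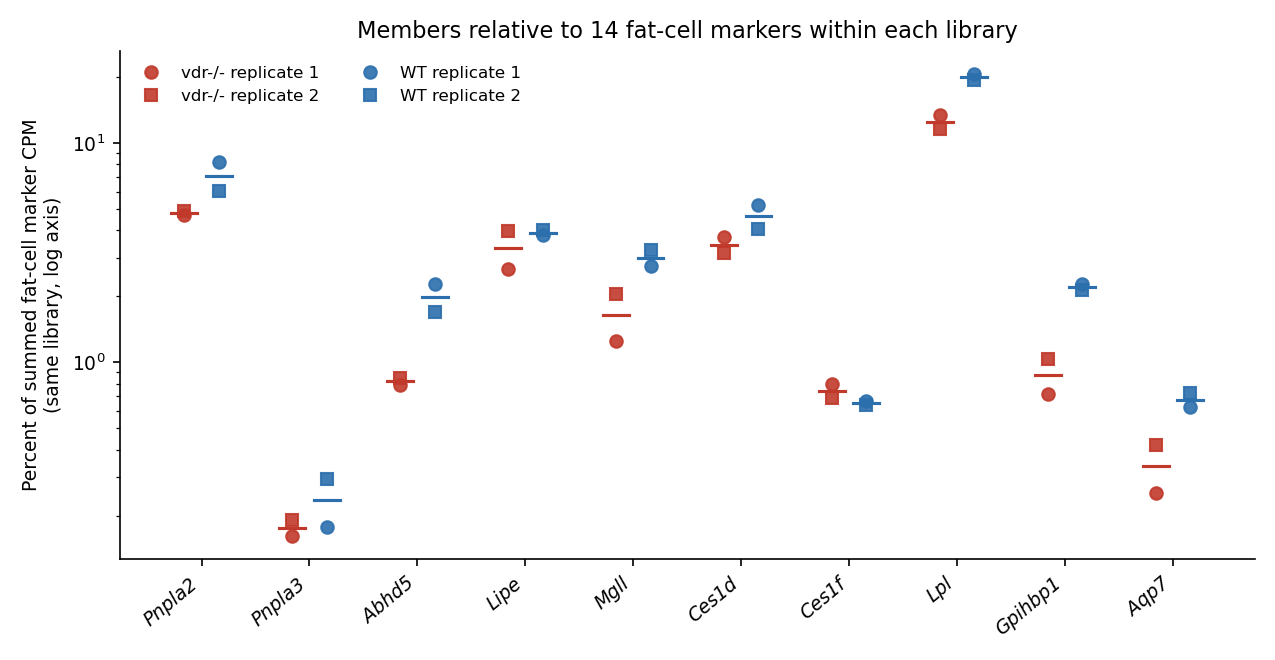
Level of each gene as a percentage (log axis) of the summed CPM of 14 fat-cell markers in the same library, vdr-/- in red left of WT in blue, circles for replicate 1, squares for replicate 2, bars for group means. For 7 genes the red points lie below the blue ones, Lipe and Pnpla3 overlap, and for Ces1f the red points are above. With Cfd left out of the sum, Ces1d overlaps too.

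None of the muscle fibre, macrophage and fibroblast markers was called, where 2.03% of all tested genes were called. The 12 muscle fibre markers summed to 89931 and 91153 CPM in vdr-/- muscle and 102568 and 94967 CPM in WT muscle. Ckm (log2 fold change 0.04), Acta1 (-0.10) and Myh1 (-0.20) were among them, so the labelled tissue had its defining markers. Of the 12 log2 fold changes, 4 were above 0. Ttn, outside the naming rule, was at 16072 and 17309 CPM in vdr-/- muscle and 23740 and 23115 CPM in WT muscle. Its log2 fold change was -0.49 ± 0.15 (SE), and it was called lower with DESeq2 and with no filter on low counts. The 9 macrophage markers summed to 381 and 412 CPM in vdr-/- muscle and 326 and 378 CPM in WT muscle, with all 9 log2 fold changes above 0, a median of 0.22, and Adgre1 at 0.23, Cd68 at 0.02 and Csf1r at 0.06. The 8 fibroblast markers summed to 5589 and 5562 CPM in vdr-/- muscle and 5334 and 5690 CPM in WT muscle, with log2 fold changes of 0.30 for Pdgfra, -0.04 for Dcn and -0.36 for Lum.

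The genes whose levels followed each member most closely over the 4 libraries were taken from 6282 genes with a mean CPM of at least 10, by the root mean square difference of centred log2 CPM. With 4 libraries in 2 groups this likeness is a description. Nearest to Lipe were Plin1 (0.0662), Lgals12 (0.076) and A530016L24Rik (0.103), and nearest to Ces1f were the droplet protein Cidec (0.0686), Hsd11b1 (0.0764), which reactivates glucocorticoids, and Cfd (0.107). Lpl lay nearest to catalase, Cat (0.0358), Gstz1 (0.0765) and the fatty acid transporter Slc27a1 (0.0793), and Ces1d to complement C3 (0.0757), Tst (0.0821) and Acss3 (0.111). Pnpla2 lay nearest to Zfp36 (0.0501), which promotes the decay of mRNAs, Phgdh (0.0955) and Apol6 (0.106).

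Mgll and Aqp7, the genes of the last lipase step and of glycerol export, were near each other (0.0766). Mgll was nearest of all to the retinol carrier Rbp4 (0.0742) and also to Acbd4 (0.103), and Aqp7 was followed after Mgll by Epb41l1 (0.0895) and Pgd (0.0966). Pnpla3 lay nearest to Hsd17b12 (0.0796), Agpat2 (0.0862), which makes a precursor of triglyceride, and Cdo1 (0.0923), all of them lowest in WT replicate 1. The 2 members with the smallest differences lay nearest to genes with log2 fold changes of 0.46 to 0.61: Abhd5 to Pgrmc1 (0.0303), Mgst3 (0.0304) and Man2c1 (0.0319), and Gpihbp1 to Slc25a23 (0.0269), Tspan12 (0.0292) and Cbr2 (0.0331).

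Chromosomal neighbours were measured as well. The nearest tested genes on either side of the 10 members were 19 different genes, of which 0 were called, near the share of 2.03% over all tested genes. Of their log2 fold changes 8 were above 0, and the median was -0.09. Beside Pnpla2, Rplp2 was at -0.01 and Cracr2b at 0.07, and beside Lpl, Ints10 was at 0.02 and Atp6v1b2 at -0.09.

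Promoters, from 250 bases before to 50 after a transcription start, were found in RefSeq (GRCm38.p6) for 6 of the 10 genes, with 9 starts in all. They are shown upstream of the start for the lipases of the first and last step and for Pnpla3, because these are lipases that were called and not called. Capitals mark matches, on either strand, to the GC box GGGCGG bound by Sp1, the E-box CACGTG and the cAMP element TGACGTCA.
Pnpla2, chr7:141454938-141455187, + strand: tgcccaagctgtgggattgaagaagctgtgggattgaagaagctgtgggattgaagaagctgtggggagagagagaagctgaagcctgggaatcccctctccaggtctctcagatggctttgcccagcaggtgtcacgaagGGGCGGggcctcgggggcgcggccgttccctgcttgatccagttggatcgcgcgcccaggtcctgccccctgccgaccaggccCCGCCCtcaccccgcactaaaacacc
Pnpla3, chr15:84167566-84167815, + strand: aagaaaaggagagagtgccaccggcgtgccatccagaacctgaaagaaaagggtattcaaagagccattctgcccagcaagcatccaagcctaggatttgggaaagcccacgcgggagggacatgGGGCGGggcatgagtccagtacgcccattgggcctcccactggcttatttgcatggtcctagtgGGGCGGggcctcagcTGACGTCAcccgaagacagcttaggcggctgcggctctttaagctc
Mgll, chr6:88724162-88724411, + strand: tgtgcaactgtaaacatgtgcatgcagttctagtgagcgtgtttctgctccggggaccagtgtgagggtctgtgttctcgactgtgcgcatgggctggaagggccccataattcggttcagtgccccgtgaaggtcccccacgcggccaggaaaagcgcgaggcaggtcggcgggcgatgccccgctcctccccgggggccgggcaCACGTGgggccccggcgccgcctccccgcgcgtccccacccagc

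Over the full window of 300 bases the GC box occurred 2 times at Pnpla2, 3 times at Pnpla3, 6 times at the first start of Lipe, once at Abhd5 and once at each of both starts of Mgll, and 0 times at both starts of Aqp7 and at the second start of Lipe. At least 1 GC box was found in 35.7% of 32851 promoters of the same length. The E-box, found in 7.15% of promoters, occurred at the first starts of Lipe and Mgll, and the cAMP element, found in 1.79%, at Pnpla3. The hexamer AGGTCA, which nuclear receptors bind and which 16.3% of promoters hold, occurred at both starts of Aqp7 and at Abhd5. No direct repeat of that hexamer with a spacer of 3 bases, the form bound by the vitamin D receptor with its partner RXR, or of 1 base, the form bound by PPARs, was in any of the 9 windows, and these exact repeats were in 0.00609% and 0.0396% of all promoters. The GC share ran from 49.7% and 55% at the starts of Aqp7 to 70% and 72.3% at those of Mgll, neither of them called, with Pnpla2 at 65.3% and a median of 52.7% over all promoters.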

How the data were processed

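The authors deposited 1 file of raw counts per library, with a whole number of reads for each Ensembl gene. Per the submitters' processing notes, the authors used Trimmomatic, STAR and DESeq2 with GRCm38; tool versions, strand setting and counted annotation: not given in the sources used here. The labels name the kit both as an RNA and as a total RNA kit. Symbols and coordinates come from GENCODE M21, which matched 55394 of 55573 IDs.

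Genes were filtered with filterByExpr (minimum count 10, minimum total 15) and compared with the quasi-likelihood test of edgeR 4.0.16 in R 4.3.3 (TMM scaling, factors 0.9799 to 1.0486, robust estimation, genotype as the only term). This called 265 of 13076 genes, 211 higher and 54 lower. The common biological coefficient of variation was 13.59%. Within each group the libraries differed beyond sampling noise (chi-square per degree of freedom 12.47 in vdr-/- and 8.041 in WT) and were kept apart. With 2 libraries a group, the smallest differences that can be called depend on this spread. Alternatives were other scalings, filters, tests, the replicate number as a block and leaving out each library. The scripts were tested on simulated data.

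All members are named. In the lists of related genes, called genes up to 6 by smallest p are named, otherwise 2, and in marker lists genes are taken from the first 3 and the called genes, up to 4 by smallest p; genes outside this rule are marked as such. The members, lists, motifs and naming rule were chosen with earlier results of these data known. The earlier quasi-likelihood method of edgeR, the reference transcript length, the other bases for ratios to fat-cell markers and the promoter motifs were added after seeing the data.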

Additional observations from a re-analysis of the deposited data

How the results depend on the processing

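All 10 genes were higher in vdr-/- muscle in all 14 alternatives, and Pnpla2, Lipe, Ces1d, Ces1f and Lpl were called in all 14. Pnpla3 was called in 10, and in addition to the single libraries given above it lost its call without robust estimation (log2 fold change 1.35). Abhd5 was called with total counts only (0.63), with no filter on low counts (0.59) and with the earlier quasi-likelihood method (0.58), Mgll with DESeq2 (0.93), and Gpihbp1 in none. The number of members called ran from 5 to 8, where 6 were called as reported. Over all genes, 265 were called as reported and 476 with no filter on low counts, which tests more genes; the other alternatives gave 216 to 353. With 1 library left out, 216 to 336 genes, 5 to 7 members and 9 to 11 genes of the 3 related lists were called, the lone library of a group being assumed to vary like the other group. DESeq2 1.42.0 called 302 genes. Same-numbered libraries deviated together with a correlation of 0.05 over 6282 genes. This comes from only 2 pairs, so it cannot show whether the replicate numbers pair the libraries. A fit with the replicate block called 353 genes and 8 members, Mgll (0.94) and Aqp7 (0.80) among them. Depth limits what can be seen of genes with few counts, such as Pnpla3 with 21 counts in WT replicate 1 and Apoc3 with 1; the cause of their lost calls was not tested.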
